A study of Mus musculus with 20 samples.

Results

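Variable regions far from genes were stretches of open chromatin in mouse brain endothelial cells that lay over 50 kb from every protein-coding gene end and were called as ATAC-seq peaks in 5 to 15 of 20 mice. They were chosen by the number of lists that held a peak, by width and by distance, and neither the age nor the sex of the calling animals entered that choice. Peaks of all 20 lists that overlapped by at least 1 bp were joined into regions on chromosomes 1 to 19. A region counted as far when it was under 2000 bp wide and over 50 kb from both annotated ends of every protein-coding gene, on build mm10. The rule gave 3133 of 51424 regions, or 6.09%. They were 25.8% of the regions called in 5 to 15 libraries. On each side of the limits the numbers were similar: 563 otherwise eligible regions were called in 4 libraries and 438 in 5, 211 in 15 and 221 in 16. Between 45 and 50 kb from a gene end lay 254 variable regions, and between 50 and 55 kb lay 238. The width limit removed 0 variable far regions.

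Chromatin is open where nucleosomes are displaced by bound factors, and a large share of the open sites of any cell type lies away from promoters, where enhancers, insulators and starts of non-coding transcripts are found. Distal open sites are in general more specific to a cell type and to a cell state than promoters are. In endothelium, ETS family factors such as ERG and FLI1, SOX factors of the Sox17 group, GATA2, forkhead factors and AP-1 are known to bind such distal sites. Regions carry the name of the protein-coding gene whose annotated end is nearest, which says nothing about the gene they may regulate.

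The series asks how endothelial chromatin differs across adult life. Endothelial cells, which line the vessels and form the blood-brain barrier, were enriched by flow cytometry from brains of wild-type (WT) C57BL/6 mice, and each mouse gave 1 library made from 50000 cells. There were 4 mice of 2 months (1 male and 3 females), 5 of 6 months (2 males and 3 females), 5 of 12 months (2 males and 3 females) and 6 of 18 months (3 males and 3 females). All groups were untreated wild types, so age and sex were the variables compared. The labels used here name no sort marker.

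The lists held 19144 to 37162 peaks on chromosomes 1 to 19. The numbers of the libraries fell into 3 runs, called library sets here, which the labels do not call batches. Set 1 held 3 libraries of 18 months. In set 2 were 1 library from 2 months, 5 from 12 months and 3 from 18 months. In set 3 were 3 from 2 months and 5 from 6 months. Age and set therefore overlapped only within set 2 and set 3, and set 3 had no mouse older than 6 months. Of 10 endothelial marker genes, 9 or 10 had a peak within 1 kb of an end in every library. The same count was 0 or 1 of 7 for neurons, 0 or 1 of 7 for T and B cells, 1 of 8 for microglia and macrophages, 0 to 2 of 8 for pericytes and smooth muscle, and 0 or 1 of 6 for oligodendrocytes. Astrocyte markers had 1 to 3 of 7, with means per age from 1.00 at 6 months to 2.60 at 12 months, and their part in the results was not tested.

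Most of the 3133 regions overlapped no annotated transcript start. Inside the span of a protein-coding gene lay 1455, and 1678 lay between genes. An annotated lncRNA was overlapped by 487, a pseudogene by 40, a snoRNA gene by 5 and a microRNA hairpin by 2. The gene table gives spans without exons, so exon, intron and UTR could not be told apart. Only 78 regions, or 2.49%, overlapped an annotated promoter window in the RefSeq table (build GRCm38.p6), which runs from 250 bases before to 50 after a start. For variable gene-end regions, those within 1 kb of an end, the share was 43.6%, and for far regions called in all 20 libraries it was 8.21%. Of the 78 windows, 58 belonged to lncRNAs and 20 to protein-coding genes, the latter as starts inside the gene's longest span. Among the 20 were Runx1 and Mecom, transcription factors of blood and endothelial development, Hdac9, a histone deacetylase, Slc7a11, the cystine transporter, and Cald1, caldesmon. By the trend test described further on, none of the 78 was called less often with age and 7, or 8.97%, were called more often, beside 7.28% of all far regions and 7.69% of all tested regions. The 7 are all lncRNA starts: Gm31771, Morrbid, Gm38542, 5430435K18Rik, Lncpint, Gm35551 and Gm52296.

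Sequences are shown for 6 of these windows, 4 lncRNA starts that old animals called and young ones rarely did, and the internal starts of the factors Mecom and Runx1. They come from RefSeq, 5' to 3' on the strand of the gene. Capitals mark matches to the ETS letters GGAAG and the AP-1 letters TGANTCA on either strand. Gm35551 is at chr17:84026272-84026571 on the minus strand, Gm31771 at chr1:97910853-97911152 on the plus strand, Morrbid at chr2:128429302-128429601 on the minus strand, and 5430435K18Rik at chr5:151252373-151252672 on the plus strand. Mecom is at chr3:30013155-30013454 and Runx1 at chr16:92697280-92697579, both on the minus strand.
Gm35551: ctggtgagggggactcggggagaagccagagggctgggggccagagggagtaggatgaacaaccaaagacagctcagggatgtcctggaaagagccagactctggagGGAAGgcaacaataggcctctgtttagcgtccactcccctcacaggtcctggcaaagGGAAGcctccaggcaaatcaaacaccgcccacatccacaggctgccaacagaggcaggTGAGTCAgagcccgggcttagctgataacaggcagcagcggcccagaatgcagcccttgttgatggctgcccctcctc
Gm31771: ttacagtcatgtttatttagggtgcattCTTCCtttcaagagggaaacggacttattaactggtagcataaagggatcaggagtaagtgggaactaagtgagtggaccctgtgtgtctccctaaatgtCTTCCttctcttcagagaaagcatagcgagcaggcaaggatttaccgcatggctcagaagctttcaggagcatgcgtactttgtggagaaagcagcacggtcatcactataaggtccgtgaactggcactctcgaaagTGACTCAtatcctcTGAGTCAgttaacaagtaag
Morrbid: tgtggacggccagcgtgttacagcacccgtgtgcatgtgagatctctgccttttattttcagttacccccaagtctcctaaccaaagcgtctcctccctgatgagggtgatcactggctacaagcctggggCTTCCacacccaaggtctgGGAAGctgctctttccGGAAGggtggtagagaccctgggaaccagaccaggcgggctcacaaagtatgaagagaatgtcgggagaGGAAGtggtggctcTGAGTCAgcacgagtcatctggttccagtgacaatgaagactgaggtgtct
5430435K18Rik: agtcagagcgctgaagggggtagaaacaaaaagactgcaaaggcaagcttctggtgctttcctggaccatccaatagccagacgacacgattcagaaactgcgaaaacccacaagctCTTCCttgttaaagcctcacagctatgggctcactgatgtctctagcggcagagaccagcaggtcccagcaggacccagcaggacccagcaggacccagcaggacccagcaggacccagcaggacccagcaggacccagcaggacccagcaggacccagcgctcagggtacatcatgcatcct
Mecom: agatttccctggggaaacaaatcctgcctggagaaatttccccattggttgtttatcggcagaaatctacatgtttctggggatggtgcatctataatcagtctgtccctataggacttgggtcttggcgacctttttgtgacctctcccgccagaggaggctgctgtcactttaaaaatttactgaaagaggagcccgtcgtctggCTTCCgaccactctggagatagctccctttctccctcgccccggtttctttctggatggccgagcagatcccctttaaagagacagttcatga
Runx1: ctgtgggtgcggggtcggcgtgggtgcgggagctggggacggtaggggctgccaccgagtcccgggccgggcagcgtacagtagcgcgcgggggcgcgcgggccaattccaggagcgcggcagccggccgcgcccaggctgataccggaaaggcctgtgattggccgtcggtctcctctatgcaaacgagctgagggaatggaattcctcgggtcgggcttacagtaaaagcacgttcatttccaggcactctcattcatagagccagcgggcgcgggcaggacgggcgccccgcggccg

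The Gm35551 window lay whole inside a region called in 6 of 6 libraries of 18 months and in 0 of 14 others, and the summits of 5 of its 6 peaks fell in the window. It holds 2 ETS matches and 1 AP-1 match. The region at Gm31771, within the gene Pam, was called in 5 of 6 libraries of 18 months and in no other, with all 5 summits in the window, which holds 2 ETS and 2 AP-1 matches. Morrbid, a lncRNA known for restraining the death gene Bcl2l11 in myeloid cells, had calls from 0 of 4, 1 of 5, 3 of 5 and 5 of 6 mice in order of age. The start of 5430435K18Rik lies inside Stard13 and had calls from 0 of 4, 0 of 5, 3 of 5 and 6 of 6. Its printed window holds the same short unit many times over, and reads from repeated units may be placed uncertainly. The Mecom start had calls from 3 of 4, 0 of 5, 2 of 5 and 5 of 6 mice and the Runx1 start from 2 of 4, 1 of 5, 2 of 5 and 6 of 6, and neither passed the trend test. The Runx1 window had 69% G and C and 35 CpG pairs.

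Over the 78 windows the ETS letters were found in 78.2%, against 71.3% of all 31396 windows on these chromosomes. AP-1 letters were in 16.7% against 7.84%, the SOX letters ACAAT in 43.6% against 30.4%, and the forkhead letters TGTTTAC in 7.69% against 3.71%. The E-box CAGCTG was in 26.9% against 16.3% and the E-box CACGTG in 8.97% against 7.14%. GATA letters (AGATAA) were in 12.8% against 11.2%, TEAD letters (GGAATG) in 15.4% against 14.6%, and NF-kB letters (GGGANNNCC) in 19.2% against 18.8%. Both strands were searched, and the ETS and TEAD letters begin alike, so matches of these can overlap. These shares are descriptions of annotated starts and cover 78 of the 3133 regions. The 78 windows were 58 of lncRNAs and 20 of protein-coding genes, and the motif shares were not split by these kinds. Median G and C content was 50% in the 78 windows and 53% in all. For lncRNA windows it was 48% under far regions and 48.3% in all, and for protein-coding ones 51.8% and 57%.

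One microRNA hairpin, that of Mir30a, lay whole inside a far region, at chr1:23272269-23272339 on the plus strand. The miR-30 family is known in endothelium for acting on Dll4 and sprouting. The mature sequences are given with the seed, bases 2 to 8, in capitals.
mmu-miR-30a-5p: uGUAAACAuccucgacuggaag
mmu-miR-30a-3p: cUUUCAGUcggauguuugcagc
The region around it, chr1:23272101-23272513, had a peak in 2 libraries aged 2 months, in none aged 6 months, in 1 aged 12 months and in 4 aged 18 months. Its calls had no detectable trend (adjusted p = 0.336, exact trend test), and 1 library called it in lists of equal length.

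In strength the far regions resembled the variable gene-end regions and not the far regions called in every library. The median region was 535 bp wide (quartiles 428 and 663) and 105.4 kb from the nearest gene end (quartiles 70.4 and 180.7 kb). Over 100 kb away lay 1673, over 500 kb 154 and over 1 Mb 47. Peaks in a region had a median fold of 4.70 over the local background, a median -log10 q of 7.17 and 19 overlapping reads at the summit, all from the authors' values. Their median rank was the 24.2 percentile of their own list. For far regions called in all 20 libraries the medians were a fold of 7.95, a -log10 q of 24.9, 45.5 reads and the 70.5 percentile. The 2 kinds of region were chosen on the number of lists, which goes with peak strength, so this contrast is only a description.

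Compared library by library with the 1662 variable gene-end regions, peaks of far regions ranked 2.07 percentile points higher, which did not pass the test (sign-flip permutation test over 20 libraries, p = 0.125). Within each number of calling libraries the difference was 3.92 points (sign-flip permutation p = 0.00393). Not grouped by callers, the library medians averaged 25.5 for far and 21.0 for gene-end regions at 2 months, and 23.8 and 16.1 at 6 months. The direction was the other at 12 months (18.7 and 19.6) and 18 months (26.65 and 28.4). No test was made by age. Widths differed by 0.425 bp (sign-flip permutation p = 0.853), from 276 to 390 bp per library for far regions and 277 to 395 bp for gene-end regions.

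The number of far regions that a library called followed the length of its list. At 2 months the 4 libraries called 658, 792, 1530 and 2512 far regions. At 6 months the 5 libraries called 1438, 743, 560, 950 and 781, and at 12 months 614 to 1598. The 6 libraries of 18 months called 1101 to 2450, with a median of 2310.5. The highest count of all was that of 2 months replicate 4, so the ages overlapped. Across the 20 libraries, the count rose with the number of peaks in the list, with r = 0.983 and rho = 0.979. The count is a part of that list, so this is a description with no test. It was 0.987 within set 2, 0.994 within set 3 and 0.986 once the 2 libraries with the most extreme lists were dropped. The count had a weaker relation with age (r = 0.508, permutation p = 0.0235, adjusted over 10 relations 0.0392; rho = 0.469, p = 0.0369, adjusted 0.0614). That r was 0.413 without the 2 farthest libraries, 0.609 within set 2, -0.577 within set 3 and 0.221 for residuals from set means. The last 3 did not pass (permutation p = 0.0942, 0.126 and 0.331). The r with age thus had the same direction within set 2 and the opposite within set 3, which holds only ages 2 and 6 months. Without 18 months replicate 2 it was 0.452 and no longer passed (permutation p = 0.0527). No difference of means from 2 months passed an exact permutation test: -478.6 regions at 6 months (adjusted p = 0.417), -66.0 at 12 months (0.841) and 656.5 at 18 months (0.417). Without 2 months replicate 4 the last was 1036 (exact permutation p = 0.0357, not adjusted), and the difference at 12 months turned to 313.7, or to 107.2 without 12 months replicate 4.

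When each list was shortened to its strongest 19144 peaks, the direction with age turned. The cut took nothing from 6 months replicate 3, which called 560 far regions before and after. It left 431 of 2450 in 18 months replicate 2, so the limit on strength differed between libraries. After the cut 815 of the 3133 far regions had no call, and their median number of calling libraries was 2 instead of 9. The libraries then called 487 to 594 far regions at 2 months, 503 to 594 at 6 months, 351 to 385 at 12 months and 389 to 526 at 18 months. In order of age the means were 551 ± 48.0 (SD, n = 4), 546 ± 33.9 (SD, n = 5), 374 ± 13.3 (SD, n = 5) and 446 ± 46.6 (SD, n = 6), and the libraries of 12 months lay below all those of 2 and 6 months. Over the 20 libraries r with age was -0.643 (permutation p = 0.00309, adjusted 0.0103; rho = -0.612). It was -0.546 once the 2 farthest were dropped, and no value within library sets was computed. By set the means were 459 in set 1, 413 in set 2 and 549 in set 3. Age and set therefore cannot be told apart in this r or in the differences between ages. The mean was 177 lower at 12 than at 2 months (difference -177.2, exact permutation p = 0.00794) and 105 lower at 18 months (difference -104.9, exact permutation p = 0.0143). The 1 library of 2 months in set 2 called 543 in its shortened list, against 351 to 465 in the 8 older libraries of that set.

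**Figure D1:**
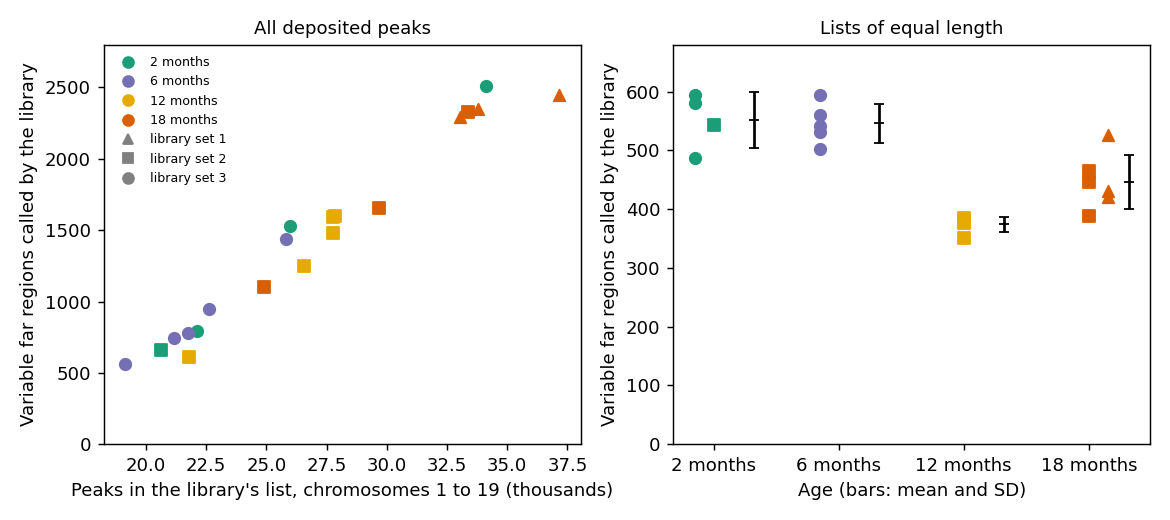
Far regions called by each of 20 libraries against the number of peaks in its list (left) and after every list was shortened to the same number of peaks (right, with mean and SD beside each age). Colour gives age and shape the library set. On the left the points follow list length from 560 to 2512 regions; on the right the libraries of 12 months, 351 to 385, sit below those of 2 and 6 months.

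Set against gene-end regions in the same library, far regions made a smaller part of the variable calls in older mice when all library sets were pooled. The log2 ratio of far to gene-end variable regions called averaged 0.925 ± 0.172 (SD, n = 4) for mice of 2 months and 1.37 ± 0.274 (SD, n = 5) for those of 6 months. For mice of 12 months it was 0.611 ± 0.117 (SD, n = 5) and for those of 18 months 0.682 ± 0.172 (SD, n = 6). Its r with age was -0.558 (permutation p = 0.0107, adjusted 0.0268; rho = -0.573) and -0.553 without the 2 farthest libraries. Within set 2 it was -0.669 (permutation p = 0.0595) and within set 3 it was 0.776 (permutation p = 0.0360). For residuals from set means it was -0.122 (permutation p = 0.612). These p-values were not adjusted. The direction was thus the same within set 2 and the opposite within set 3, which holds only ages 2 and 6 months. The ratio also fell with the number of peaks in the list (r = -0.506, permutation p = 0.0233, adjusted 0.0392). In lists of equal length its r with age was -0.601 (permutation p = 0.00546).

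Region by region, 228 far regions passed a trend test towards more calls in older mice and 224 towards fewer, while at gene ends nearly all regions that passed did so towards more. The exact trend test set the ages of a region's callers, summed, against every way of placing as many calls over the 20 libraries, with Benjamini-Hochberg adjustment at 0.05 over all 12137 regions called in 5 to 15 libraries. The 228 far regions called more often with age are 7.28% of them, where 7.69% of all tested regions were so called. The 224 called less often are 7.15%, where 3.00% of all tested regions were. Among the 1662 gene-end regions 117 rose in calls with age and 1 fell. Far regions thus made 61.5% of the 364 regions called less often and 24.4% of the 933 called more often. Unadjusted, 904 of the 3133 far regions had a p under 0.05 towards more calls, beside 3887 of all 12137 tested regions. Towards fewer calls there were 355 far regions, beside 588 of all tested regions. In 81.1% of far regions and 88.7% of all tested regions the calling libraries were older than an even spread of calls would give. Calls were also read against list length, as the share of a region's calls that lay in as many of the longest lists. That share averaged 66.55% over all far regions, 81.5% for the 228 and 15.4% for the 224. The part of list length in the trend calls was not tested.

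In lists of equal length, 850 far regions still had 5 to 15 calls and could be tested. There 143 fell in calls with age and 23 rose, or 16.8% and 2.71%, beside 4.91% and 2.05% of the 6378 regions tested in all. Gene-end regions gave 4 less and 16 more of 467. Of the 224 regions called less often in the full lists, 165 could still be tested and 113 were called again. Of the 228 called more often, only 51 could still be tested and 9 were called again. All 165 and all 51 kept their direction. The shortened lists hold only peaks of the full lists. Keeping the direction was thus nearly fixed by the choice of regions and gives no separate support. No region was called when ages were exchanged only within library sets (exact stratified test, Benjamini-Hochberg adjustment). There 30 far regions had an unadjusted p under 0.05 towards more calls and 67 towards fewer, not counted over all tested regions. Of the 228 regions called more often, 226 kept their direction within sets, and of the 224 called less often 178 did. A region called by all 9 younger and no older library cannot go below p = 0.111 in that exact test. Without 2 months replicate 4, the library with the most far regions, 864 were called more often, and without 18 months replicate 4 the number was 442. Those called less often numbered 188 to 252 whichever library was left out.

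**Figure D2:**
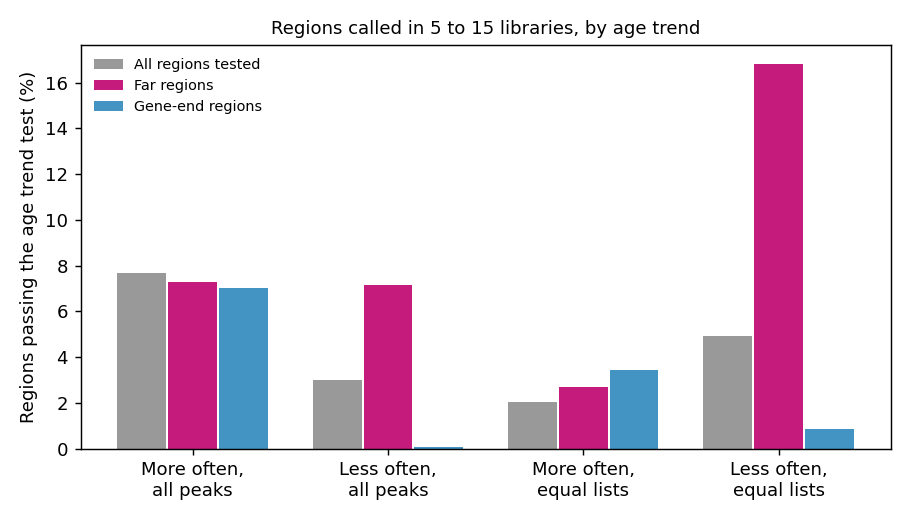
Percent of regions that passed the exact trend test with age, for all regions called in 5 to 15 libraries (grey), far regions (magenta) and gene-end regions (blue), in the full lists (left pairs) and in lists of equal length (right pairs). The magenta bars for fewer calls, 7.15% and 16.8%, stand above the grey, 3.00% and 4.91%, while the blue are at 0.0602% and 0.857%.

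By their medians, given without a test, the far regions called less often were narrower (median 411.5 bp, against 561 bp for those called more often) and farther from genes (209 kb against 96.4 kb). Only 22.8% lay inside a gene, against 50.9%. Their peaks ranked at the 40.9 percentile of the lists that held them, against the 25.5 percentile. Over 500 kb from any gene end lay 42 of the 224 and 3 of the 228. On chromosome 1 lay 110 of the 224, and 72 of these were in its first 35 Mb, which held 157 far regions. In that stretch the local background under far peaks, relative to the library's own, had medians of 1.34, 1.43, 1.14 and 1.06 at 2, 6, 12 and 18 months. Elsewhere it was 1.00 at each age, a value that the scaling itself may set. The part of the local background in the calls was not tested. Outside the stretch, the 152 remaining regions were 237.6 kb from a gene end at the median, and 15.1% lay inside a gene.

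Some calls were all or none by age. At 40 far regions, or 1.28%, each of the 9 younger libraries, 2 and 6 months old, had a peak and 0 of the 11 older ones did. Of all tested regions 0.461% had that pattern, 56 in number, so 40 of the 56 were far regions. The difference between these shares was not tested. They lay on 16 chromosomes, 10 of them in the first 35 Mb of chromosome 1, and 15 kept that pattern in lists of equal length. The 8 named by order of position are all in that first 35 Mb of chromosome 1, where most of the 40 do not lie. One lay inside Sntg1, a syntrophin of the dystrophin complex (chr1:8694734-8695163, 430 bp, 334995 bp from a gene end). Its peaks had a median fold of 6.84 and 39 reads at the summit, the summits lay within 13 bp of each other, and all 9 young libraries called it also in the shortened lists. One inside A830018L16Rik (chr1:11777070-11777526) had a fold of 8.99 and 37 reads, with summits within 30 bp. A second lay 355640 bp from that gene (chr1:12331542-12332278, fold 5.96, 23 reads). The others were near Xkr4, a scramblase gene (chr1:3824066-3824635), Sox17, the endothelial transcription factor (chr1:4562234-4563384), Pi15, a peptidase inhibitor (chr1:17467019-17467961), Defb41, a defensin (chr1:18538087-18538500), and Tfap2d, a transcription factor (chr1:18874129-18874531). All 8 had an adjusted p of 0.0012 in the exact trend test. The region near Sox17 lies over the lncRNA Gm37323 and was unlike the rest: its median fold was 2.49 with 97 reads at the summit, so the local background there was high.

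Some of the strongest far regions were of this kind too. Of the 5 regions with the highest mean rank, the 1 near Fgf14, a regulator of sodium channels (chr14:124801602-124802029), had a mean rank at the 82.2 percentile, a fold of 11.4 and 45 reads. It had calls from 4 of 4, 5 of 5, 0 of 5 and 0 of 6 mice in order of age. The region nearest Rab10 (chr12:3004738-3005061) had the same calls, a fold of 8.96 and 35 reads, and lies at the very start of the assembled chromosome. A region near B230307C23Rik (chr16:98107398-98107742) had a fold of 9.84 and 34 reads and was called by all 9 young libraries and by 12 months replicate 2. The other two lie inside A830018L16Rik: the one above, and 1 at chr1:11618666-11619178 with calls from 4 of 4, 5 of 5, 1 of 5 and 3 of 6, which did not pass (adjusted p = 0.114, exact trend test).

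One far region, or 0.0319% of them, had the reverse pattern, with a peak in each of the 11 older mice and in 0 of 9 younger ones, beside 0.0330% of all tested regions. It lies 357590 bp from Obox7, an oocyte homeobox gene (chr7:15023586-15024414), had a fold of 6.61 and 23 reads, and was called by 8 libraries in lists of equal length. The 7 others with the smallest trend p towards age had adjusted p values of 0.00429 to 0.00548 (exact trend test). Beside the Gm35551 region near Zfp36l2, an RNA-decay factor, they were near Ier5, an immediate early gene (chr1:155040306-155040730, calls in 0 of 4, 0 of 5, 1 of 5 and 6 of 6), and near Cryaa, a lens crystallin (chr17:31746508-31747245, 0 of 4, 0 of 5, 4 of 5 and 6 of 6). Inside Abca4, a retinoid transporter (chr3:122097888-122098431), and inside Lmo7, an adherens junction gene (chr14:101798378-101799110), 1 of 5 libraries of 6 months and all of 12 and 18 months had a peak. The last 2 lay over Snhg14 near Snrpn (chr7:59741856-59742195 and chr7:59798898-59799875), with 33 reads each. In lists of equal length Lmo7, Cryaa and Zfp36l2 kept 1 calling library each, Ier5 kept 3, Abca4 6, and the pair near Snrpn 7 and 6.

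**Figure D3:**
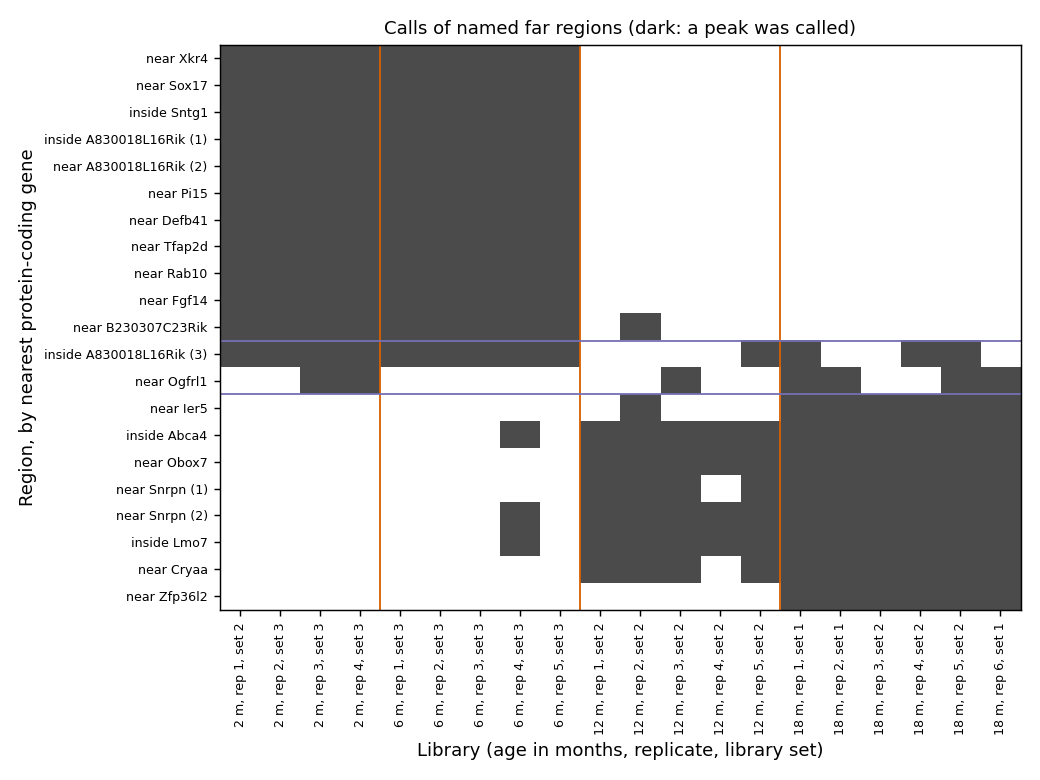
Calls of 21 named far regions (rows) in 20 libraries (columns, by age, replicate and library set); a dark cell means that the library had a peak there. The top block was called less often with age, the middle block (inside A830018L16Rik, and the Mir30a region near Ogfrl1) did not pass the test, and the bottom block was called more often; the rows were named by trend p, rank or the microRNA, so the first and last blocks show what the test chose.

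Each library was then left out of the trend test and read afterwards. The test was repeated on the other 19, and the share of the called regions that the left-out library held was counted. The trend call did not use that library, but its peaks entered the joined regions and the limit of 5 to 15 callers, so the reading is not fully independent and has no test. Of regions called less often with age, the 3 libraries of 2 months in set 3 held 80.5%, 83.3% and 85.8%, and the 5 of 6 months held 66.2% to 82.5%. The 11 libraries of 12 and 18 months held 1.88% to 15.6%, so old and young libraries did not overlap. In 6 months replicate 3, which has the shortest list, calls covered 17.9% of all far regions and 82.5% of these, while in 18 months replicate 2 they covered 78.2% of all and 3.17% of these. Most young libraries are in set 3 and most old ones in set 2, so age and set cannot be told apart in these shares. The only young library in set 2 is 2 months replicate 1. It held 114 of 251 such regions, or 45.4%, against 21.0% of all far regions. That is above the 8 older libraries of its set (1.88% to 15.6%) and below the 8 young libraries of set 3.

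Of regions called more often with age, the left-out libraries held 11.9% to 74.2% at 2 months, 6.09% to 37.6% at 6 months, 25.2% to 63.5% at 12 months and 43.0% to 92.6% at 18 months. At 2 months, replicate 4 held 74.2% of the regions chosen without it and 80.2% of all far regions, and replicate 1 held 14.2% against 21.0%. At 12 months, replicate 4 held 25.2% against 19.6% of all far regions, and 18 months replicate 2 held 92.6% against 78.2%. Each of the 11 libraries of 12 and 18 months held a larger share of these regions than of all far regions, and each of the 9 younger ones a smaller share.

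**Figure D4:**
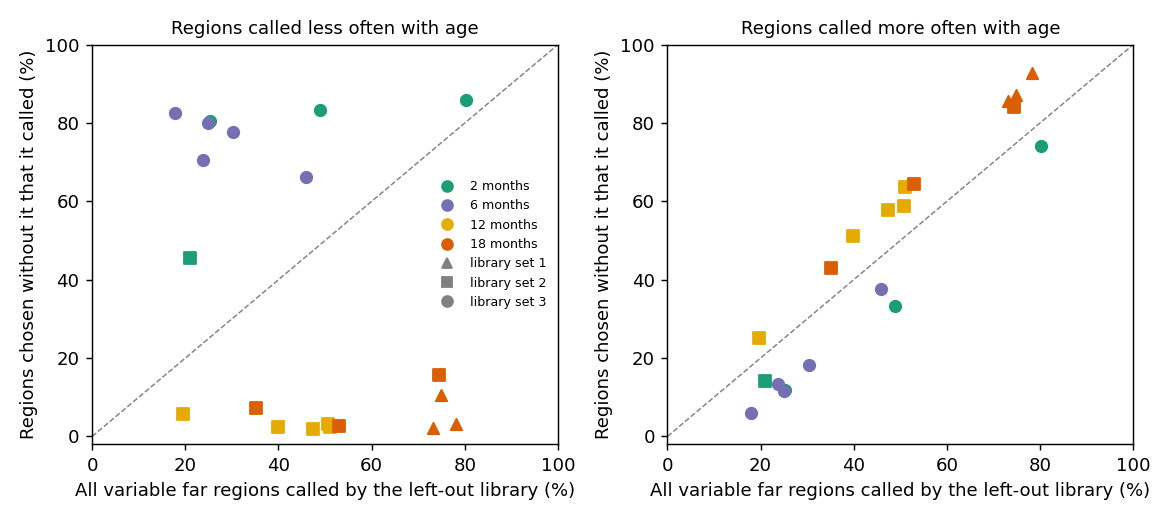
Share of age-trend regions, chosen without a library, that the library itself called, against the share of all far regions it called, for regions called less often (left) and more often with age (right). Each point is 1 of 20 libraries, coloured by age and shaped by set; the dashed line marks equal shares. On the left young libraries sit at 45.4% to 85.8% and old ones at 1.88% to 15.6%. On the right old libraries lie above the line and young ones below it.

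Pairs of ages gave smaller numbers. Between 2 and 12 months, 110 far regions were called in all 4 libraries of 2 months and none of 12, and 10 the other way. These are 3.51% and 0.319% of far regions, beside 1.53% and 0.321% of all tested regions. Between 2 and 18 months the numbers were 87 and 34, or 2.78% and 1.09%, beside 1.15% and 1.08%. Between 2 and 6 months they were 6 and 0, or 0.192% and 0%, beside 0.330% and 0.0165%. Only the shares called at 2 months and not at 12 or 18 months stood well above those of all tested regions, and the 6 regions called at 2 and not at 6 months were below. Fisher's exact test called 0 regions in each pair after Benjamini-Hochberg adjustment, with smallest adjusted p of 0.428, 0.213 and 0.911. Its smallest possible p is 0.00794 for 2 against 6 or 12 months and 0.00476 for 2 against 18 months. Unadjusted, 281 far regions were under 0.05 towards fewer calls at 12 months and 82 towards more. At 18 months the same numbers were 226 and 292, and at 6 months 116 and 8. The shares of all tested regions under 0.05 were not computed. The all-or-none counts depend on single libraries. Without 2 months replicate 1, those called only at 2 months numbered 184 against 12 months, 150 against 18 months and 38 against 6 months, and 16 were called only at 12 months. Without 2 months replicate 4, 47 were called only at 12 months and 182 only at 18 months. Leaving out 12 months replicate 4 gave 26 only at 12 months, and leaving out 18 months replicate 4 gave 86 only at 18 months. For 2 against 6 months, the 6 regions became 33 without 2 months replicate 2, 24 without 6 months replicate 1, and 10 or 11 without 2 months replicate 3 or 6 months replicates 3, 4 or 5. The 0 became 1 or 2 without 2 months replicates 2, 3 or 4 or 6 months replicates 2 or 3.

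Pairs of libraries of 1 age shared more far regions on average than pairs of different ages, though not at every age. The Jaccard index, the far regions that both libraries of a pair called as a share of those that at least 1 of them called, averaged 0.419 for pairs of 1 age and 0.275 for pairs of different ages. The difference of 0.144 passed a permutation test of the ages (p = 1e-05, the smallest that 100000 permutations give). Over gene-end regions it was 0.105 (permutation p = 0.00014). Among pairs within a library set it was 0.0881 for far regions (permutation p = 0.0931), which did not pass. Pairs of 18 months averaged 0.581, pairs of 12 months 0.365, of 6 months 0.300 and of 2 months 0.302. Between 12 and 18 months the mean was 0.419 and between 2 and 18 months 0.307, both above that within 2 months and within 6 months. Between 6 and 12 months, the lowest of the means, it was 0.189.

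Far regions often came in runs. Within 100 kb of another lay 2036 of them, in 634 runs of 2 or more, and 1097 stood alone. The longest run held 25 regions over 373.5 kb between Ube3a and Snrpn (chr7:59429178-59802721), an imprinted stretch that also holds Snhg14 and 145 annotated snoRNA genes in near-identical copies. Reads from such copies can be placed uncertainly, and the authors' treatment of them is not known here. Libraries called 2 to 17 of the 25, with means of 7.00, 9.00, 11.8 and 11.7 at 2, 6, 12 and 18 months. The runs were picked by length and their counts have no test, to be read beside the 7.69% more and 3.00% less of all tested regions. In this run 4 regions passed the trend test towards more calls in older mice and 3 towards fewer. In the run of 11 between Atp6v1h, a proton pump subunit, and Oprk1, the kappa opioid receptor (chr1:5253779-5488357), 7 were called less often. This run lies in the first 35 Mb of chromosome 1. It had means of 8.50, 8.60, 2.00 and 1.67 regions at the 4 ages, and the 2 months library of set 2 called 2 of 11. The run of 12 inside Rapgef4, a cAMP-activated exchange factor (chr2:72044220-72204173), had none that passed, with means of 4.25, 3.40, 5.00 and 8.67. The run of 12 between Haao and Zfp36l2 (chr17:83903415-84126716) had 2 called more often, with means of 4.75, 2.80, 5.20 and 9.50. A run of 11 between Lacc1 and Serp2 (chr14:76630376-76804878) had 1, with means of 4.75, 4.00, 8.00 and 8.33.

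The genes that held most far regions were long ones. Of 642 genes that held any, Ptprg, a receptor phosphatase, held 14 in 688.6 kb. Libraries called 0 to 14 of these, with means of 5.75, 4.80, 8.20 and 10.8 at 2, 6, 12 and 18 months, and 2 were called more often with age. Beside these counts stand 7.69% more and 3.00% less of all tested regions, and no test was made by gene. Rapgef4 held 12, Pard3, a polarity gene of cell junctions, held 11 with 1 called more often, and 7 genes held 10 each. Among the 7 were Tcf4, Foxp1 and Msi2, all regulators of gene expression, and Arhgap26, Prkce and Ttc28. These 6 had 0 regions called less often and 0 to 2 called more often. In Sntg1, which also held 10, the direction was the other: of its 10 regions 7 were called less often, with means of 7.50, 8.00, 1.60 and 1.17 regions per library, and it lies in the first 35 Mb of chromosome 1.

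By gene list, the most regions called less often lay near synaptic and neuronal adhesion genes, a list made of genes of gene-poor stretches. Of 57 far regions nearest to a gene of the synaptic list, 19 were called less often and 2 more often. For genes of endothelial identity and barrier function it was 0 less and 2 more of 26. For endothelial transcription factors it was 2 less and 6 more of 58, and for Wnt, TGF-beta, BMP and Notch genes 0 less and 1 more of 12. Growth factor and guidance genes gave 5 less and 3 more of 26, and matrix and adhesion genes 0 less and 1 more of 9. These are counts without a test, to be read against 7.15% less and 7.28% more over all far regions. Over all tested regions the shares were 3.00% less and 7.69% more. The lists were chosen with earlier results of these data known.

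Single regions near endothelial genes were named by list. Near Cdh5, the endothelial cadherin (chr8:104050976-104051305), a peak was called for 0 of 4, 0 of 5, 2 of 5 and 3 of 6 mice (adjusted p = 0.114, exact trend test). Inside Vwf, von Willebrand factor (chr6:125604443-125604815), calls numbered 2, 2, 4 and 5 at 2, 6, 12 and 18 months. Inside Lef1, the Wnt effector (chr3:131172114-131172740), they numbered 1, 0, 2 and 3. Of transcription factor genes, the regions inside Ets1 (chr9:32705799-32706414), inside Tcf7l2 (chr19:55792471-55793136) and near Foxo1 (chr3:52400864-52401875) had 9, 10 and 10 calls and none passed. Near Ctnnb1, beta-catenin (chr9:120880249-120881277), a region had calls from 0 of 4, 0 of 5, 2 of 5 and 6 of 6 and passed (adjusted p = 0.00814, exact trend test), with calls from 2 libraries in lists of equal length. Those inside Tgfbr3, a TGF-beta co-receptor, and near Apcdd1, a Wnt inhibitor, had 7 and 14 calls and did not pass.

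Among guidance genes, the region inside Nrp1, a co-receptor for VEGF and semaphorins (chr8:128437190-128438112), had calls from 2 of 4, 2 of 5, 5 of 5 and 6 of 6 mice, short of the threshold (adjusted p = 0.0591, exact trend test). Those inside Igf1r and Sema6d had 8 and 5 calls. In the matrix list, the regions inside Col4a1 and Col4a2, the paired collagen IV genes of the basement membrane, were called in 0, 1, 2 and 5 and in 2, 1, 4 and 6 libraries at the 4 ages. Their adjusted p values were 0.0546 and 0.0591 in the exact trend test, and the region inside Lamc1 had 14 calls. In the synaptic list, the region inside Cntnap2 (chr6:47239477-47240165) had calls from 1 of 4, 0 of 5, 4 of 5 and 6 of 6 (adjusted p = 0.019, exact trend test) and by 1 library in lists of equal length. Those near Cntnap5a and Cdh12 had 15 and 5 calls and did not pass.

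At the extreme of distance, the 5 farthest regions lay 1880062 to 2178496 bp from a gene end, near the protocadherins Pcdh17 and Pcdh9 and near Lrrc4c, Olfm4 and Dsel. The farthest, near Pcdh17 (chr14:82264670-82265067), had calls from 4 of 4, 2 of 5, 0 of 5 and 0 of 6 mice (adjusted p = 0.0128, exact trend test). The regions near Olfm4 (chr14:81904789-81905120) and Dsel (chr1:113745114-113745539) each had calls from 3 of 4, 3 of 5, 0 of 5 and 0 of 6 (adjusted p = 0.0256 each, exact trend test). Pcdh9 and Lrrc4c regions had 11 and 6 calls over all ages and did not pass. Of these 5, 3 were thus called only in the younger libraries.

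Sex left no call. Fisher's exact test of 8 males against 12 females called 0 far regions, beside 0% of all tested regions, and unadjusted 4 were under 0.05 towards males and 11 towards females, of 65 in all tested regions. The smallest p values were those inside Wwc2, a Hippo pathway gene (chr8:47928646-47929128, 0 of 8 males and 8 of 12 females), inside Cacna1e, a calcium channel gene (chr1:154726664-154727306, 0 of 8 and 7 of 12), and near Atp2b1, a calcium pump gene (chr10:98557730-98558247, 5 of 8 and 1 of 12). Males called 1447 ± 678 far regions (SD, n = 8) and females 1425 ± 687 (SD, n = 12; exact permutation p = 0.941). The slope on age was 99.1 regions per month in males and 27.9 in females, a difference of 71.2 that did not pass (permutation of sex within ages, p = 0.180).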

How the data were processed

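ATAC-seq peak lists of 20 libraries were used, 1 per mouse. The submitters' processing notes name FastQC, Trim Galore 0.4.2, Picard 1.115, MACS2 2.1.0 and build mm10; neither the aligner nor the treatment of reads with several matches is given in the sources used here. Per the file columns, the authors deposited for each peak a score, a fold (a ratio of the pileup to the local background), and -log10 p-values and q-values, used here only inside a list, for ranks, filters and descriptions. No read counts were analysed, so depth is unknown and an absent call is not proof of closed chromatin.

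Peaks overlapping by 1 bp were joined and calls read per library. Gene ends came from RefSeq, GRCm38.p6, over 20665 protein-coding genes. Fold and p together gave a whole pileup for 100% of 29149 peaks of far regions (tolerance 0.01 on -log10 p). Relative depth was read from 2000 peaks taken at even steps from each deposited list. The 1st percentile of their local backgrounds, 0.733 to 3.92 per library, is called the implied background. Permutation tests of single values were exact for pairs of ages and for the means by sex and otherwise used 100000 permutations. Alternatives were equal lists, a -log10 q of at least 5, 50% coverage, distances of 20 and 100 kb, 3 to 17 libraries, 1000 bp, library sets, and each library left out.

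Regions were named by a rule: the 8 smallest trend p per direction (ties by position), the 5 highest ranks, 5 farthest, 5 longest runs, 5 genes with most regions (ties gave more), up to 3 per gene list, and the 3 smallest sex p. Windows at starts, the microRNA and the left-out readings were added after seeing the data. The regions and the lists were chosen with earlier results of these data known. Motifs and base content at the regions were not analysed here, since no genome was used. Replicates are separate mice numbered in listed order. Python 3.11.15, numpy 2.4.6, pandas 2.3.3, scipy 1.17.1 and matplotlib 3.10.9 were used.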

Additional observations from a re-analysis of the deposited data

Results flagged for a closer look

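In 32 groups (8 measures at 4 ages), 3 libraries stood apart from the others of their age by Dixon's criterion, which chance alone meets in about 1 of 20 groups. The library 2 months replicate 1 held 45.4% of the regions called less often with age, against 80.5% to 85.8% in the other 3 of that age. It is the only one of them in library set 2. In 6 months replicate 3, far peaks had a median rank at the 36.5 percentile of the list, against 19.5 to 22.0 in the other 4; it has the shortest list and the lowest implied background, 0.733. With lists of equal length, 12 months replicate 2 called 351 far regions, against 376 to 385 in the other 4.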

How the results depend on the processing

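No paired analysis was possible because replicate numbers follow the order of listing and pair no animals. Read depth is unknown, and the lists differ in length. The age trend was called for 228 far regions towards more and 224 towards fewer calls. These became 23 and 143 in lists of equal length and 0 and 0 within library sets. The number towards more was 109 over 100 kb and 415 over 20 kb from genes, and 163 to 864 with 1 library left out. For fewer calls, 188 to 252 remained with 1 left out, and other settings moved it by less than 1.5 times.

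Far regions per library had r = 0.508 with age. It was -0.643 with equal lists, 0.397 over 100 kb, 0.609 in set 2, -0.577 in set 3, 0.221 for residuals from set means and 0.452 to 0.715 with 1 left out. Per 10000 peaks r was 0.450, with -0.646, 0.216, 0.570, -0.556, 0.215 and 0.393 to 0.635 under these; 50% coverage gave 0.324, 3 to 17 libraries 0.434, under 1000 bp 0.443 and residuals from the implied background 0.403. Far against gene-end regions, r of -0.558 was -0.423 over 20 kb, -0.669 in set 2, 0.776 in set 3, -0.122 for residuals and -0.624 to -0.520 with 1 left out.

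Differences from 2 months with 1 left out ran from -716.9 to -98.9 regions at 6 months, -304.3 to 313.7 at 12 and 418.2 to 1036 at 18. Equal lists gave -177.2 at 12 and -104.9 at 18 months, the 20 kb limit 70.8 at 12 months, and leaving out the first 35 Mb of chromosome 1 gave 4.85. Per 10000 peaks the ranges were -168.0 to -25.7, -73.4 to 68.9 and 66.6 to 208.8; equal lists gave -93.1 and -55.5, the 20 kb limit 57.1 and that stretch left out 17.2.

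Counts of all-or-none regions for 6 against 2 months, 0 and 6, were 8 and 1 in equal lists, with 16 over 20 kb, and 0 to 2 and 6 to 38 with 1 left out. For 12 months, 10 and 110 became 5 and 39 in equal lists, with 5 at -log10 q of 5 and 19 over 20 kb, and 10 to 47 and 102 to 184. For 18 months, 34 and 87 became 9 and 42, with 61 over 20 kb, and 34 to 182 and 79 to 150. The count by sex was 0 whichever library was left out.

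The rank difference of 2.07 points was 3.27 with equal lists, 2.96 at -log10 q of 5, -0.0293 for 3 to 17 libraries, 3.92 within numbers of callers and 1.29 to 2.43 with 1 left out. The width difference of 0.425 bp was -3.38 at 50% coverage, -0.750 over 100 kb, -10.5 for 3 to 17 libraries, -0.700 without that stretch, 6.54 within numbers of callers and -0.974 to 1.24 with 1 left out. Similarity, 0.144, was 0.0881 within sets and 0.115 to 0.169 with 1 left out. The cause was not tested for any of these changes. Of the 16 trend regions named, all 16 lost their call within sets and 2 at 50% coverage. In equal lists 8 kept it, 4 lost it and 4 had too few calls to be tested.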

Other observations

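For neighbouring far regions, of 20 libraries, 13.0 on average agreed, both calling or both not, for 462 neighbouring pairs under 10 kb apart. The number was 13.1 for 940 pairs at 10 to 100 kb, 12.5 for 993 pairs at 100 kb to 1 Mb and 11.7 for 719 pairs over 1 Mb apart. No value for unrelated regions was computed and no test was made, since pairs share libraries and list lengths. By chromosome, far regions made 15.2% of the variable regions of chromosome 19 and 36.2% of those of chromosome 1. Outside chromosome 1, which had 28.4% of its far regions called less often with age, the share ran from 1.57% on chromosome 13 to 8.81% on chromosome 14.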
